A study of Mus musculus with 12 samples.

Results

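Gjb1, Gjc3, Nfasc, Cadm4, Cntn1, Cntn2, Jam3 and Ninj2 encode the connexins and the axon-glia adhesion proteins described here. They were chosen by name as a group of 8 genes among the 23433 genes to which at least 1 H4K8ac peak was assigned. Earlier results of these data were known when they were chosen. H4K8ac is the acetylation of lysine 8 on histone H4, a mark of active chromatin, and was mapped by chromatin immunoprecipitation and sequencing (ChIP-seq). The cells were oligodendrocyte progenitor cells (OPCs) sorted from the forebrain of PdgfrαH2BEGFP mice, in which the Pdgfra gene drives a nuclear green fluorescent protein. Neonatal mice were at postnatal day 5 and adult mice at postnatal day 60, with 3 biological replicates at each age, and both ages carried the same reporter. Chromatin was crosslinked with 1% paraformaldehyde and each H4K8ac library was made from 2 ng of immunoprecipitated DNA. Pdgfra is also expressed by fibroblasts, so the reporter is not restricted to OPCs. The labels do not say how many animals were pooled for a replicate. The other 6 of the 12 samples are input libraries and were not analysed here.

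Connexins are membrane channels that assemble into gap junctions, through which oligodendrocytes exchange ions and small molecules with astrocytes and across the layers of their own myelin. Myelin also has to be held to the axon. At the paranode beside each node of Ranvier the glial form of neurofascin (Nfasc) meets axonal contactin (Cntn1) and its partner Cntnap1, at the juxtaparanode Cntn2 organises potassium channels, and along the internode Cadm4 on the glial side binds Cadm proteins of the axon. Progenitors do not yet wrap axons, and most of these proteins are best known from the myelinating oligodendrocyte.

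Transcription of Gjb1 starts at alternative promoters, and the peaks at them differed within the gene. The 5 windows below are printed because they carry that contrast, the only promoter region of the 8 genes with peaks in all 6 libraries (Cadm4), and 2 starts whose window lay wholly under peaks in each adult library and in no neonatal one (Nfasc and Ninj2). Each window runs from 250 bases before to 50 bases after a start annotated by RefSeq on GRCm38.p6 and is written 5′ to 3′ on the gene's strand. Capitals mark matches, on either strand, to 4 motifs that were searched: ACAAAG (core of SOX factor motifs), CAGCTG (an E-box), CTGGCAC (core of the MYRF motif) and GGGCGG (a GC box).
Gjb1 upstream start, chrX:101376126-101376425, plus strand: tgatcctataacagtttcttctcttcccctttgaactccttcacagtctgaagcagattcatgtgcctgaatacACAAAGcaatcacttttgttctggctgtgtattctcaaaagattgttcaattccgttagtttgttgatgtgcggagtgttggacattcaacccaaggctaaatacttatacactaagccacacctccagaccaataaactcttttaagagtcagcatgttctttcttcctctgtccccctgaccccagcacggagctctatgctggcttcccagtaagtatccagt
Gjb1 downstream start, chrX:101383482-101383781, plus strand: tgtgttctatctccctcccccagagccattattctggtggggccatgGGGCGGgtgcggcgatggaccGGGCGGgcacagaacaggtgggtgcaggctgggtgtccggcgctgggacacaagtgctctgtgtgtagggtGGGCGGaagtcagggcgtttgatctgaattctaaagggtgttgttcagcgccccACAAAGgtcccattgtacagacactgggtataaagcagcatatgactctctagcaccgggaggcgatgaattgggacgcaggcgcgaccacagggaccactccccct
Nfasc internal start, chr1:132707277-132707576, minus strand: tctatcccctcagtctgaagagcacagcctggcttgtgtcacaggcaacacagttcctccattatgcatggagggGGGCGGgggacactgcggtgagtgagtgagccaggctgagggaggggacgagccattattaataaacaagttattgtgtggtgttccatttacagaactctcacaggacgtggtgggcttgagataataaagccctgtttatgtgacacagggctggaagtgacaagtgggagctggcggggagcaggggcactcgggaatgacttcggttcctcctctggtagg
Cadm4 start, chr7:24481773-24482072, plus strand: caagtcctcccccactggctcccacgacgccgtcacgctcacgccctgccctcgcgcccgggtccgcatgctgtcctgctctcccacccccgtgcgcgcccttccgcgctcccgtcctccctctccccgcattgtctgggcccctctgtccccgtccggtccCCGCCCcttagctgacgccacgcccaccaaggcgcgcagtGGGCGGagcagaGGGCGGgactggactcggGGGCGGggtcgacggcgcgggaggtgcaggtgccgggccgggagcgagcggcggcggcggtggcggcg
Ninj2 upstream start, chr6:120093130-120093429, plus strand: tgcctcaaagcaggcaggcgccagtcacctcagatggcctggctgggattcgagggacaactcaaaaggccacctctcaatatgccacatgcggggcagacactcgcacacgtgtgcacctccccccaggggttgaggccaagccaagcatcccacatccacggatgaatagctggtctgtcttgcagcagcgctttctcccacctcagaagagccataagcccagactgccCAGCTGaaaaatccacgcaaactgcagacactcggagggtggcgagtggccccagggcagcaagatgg

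The RefSeq table held 13 windows for 7 of the 8 genes. The upstream Gjb1 window held 3 CG pairs and had 0 of its 300 bases under a peak in any library. Both Gjb1 windows printed above held 1 ACAAAG. The downstream window held 15 CG pairs and 3 GC boxes, and 112, 300 and 110 of its bases lay under peaks in adult replicates 1, 2 and 3, against 0 in each neonatal library. RefSeq gives Gjb1 further starts whose windows are not printed. At chrX:101382118 the window had 0, 289 and 239 bases under peaks in adult replicates 1, 2 and 3 and none in neonatal libraries. At chrX:101377235 it had none in any library. The Cadm4 window was rich in CG pairs, with 40, above 96.1% of the promoters in the table. Its bases under peaks numbered 56, 300 and 107 in the neonatal and 300 in each of the adult libraries. The Nfasc and Ninj2 windows held 7 and 10 CG pairs and were covered over all 300 bases in each adult library. The median over 32851 promoters was 7 CG pairs. ACAAAG was found in 18.7%, CAGCTG in 16.3%, CTGGCAC in 5.01% and GGGCGG in 35.7% of those promoters. A match describes the letters of the window only.

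The peak lists differed in length between the ages and within the neonatal group. The neonatal replicates 1, 2 and 3 held 9097, 31189 and 7353 peaks, and the adult lists held between 72278 and 77002, so neonatal replicate 2 stood apart from the others of its age. Read depth is not in the peak lists, and a longer list gives any gene more chance of a peak. Among 8 OPC marker genes, promoter peaks were found for 7 or 8 in each of the 6 libraries, with a summed width between 3.83 and 23.2 kb in neonatal and between 33.7 and 54.9 kb in adult libraries. Promoter peaks of 8 markers of myelinating oligodendrocytes were found for 2, 2 and 1 in the neonatal and for all 8 in each adult library, with a summed width between 0.435 and 3.08 kb in neonatal and between 50.2 and 78.6 kb in adult libraries. Of 8 markers each, astrocytes showed between 2 and 6 in neonatal and between 3 and 6 in adult libraries, neurons between 0 and 5 and between 3 and 5, fibroblasts between 0 and 4 and between 2 and 3, and endothelial cells at most 1 and 2 in each. Microglial markers had none in the neonatal libraries and 1 in each adult library. The summed promoter width of each of these 5 other lists was at most 5.97 kb in a neonatal and 9.34 kb in an adult library. Col3a1, Dcn and Lum of the fibroblast list and 7 of the 8 microglial genes had no promoter peak in any library. In sorted populations, more cells that carry the mark and more of the mark per cell cannot be told apart, and the part of myelinating-oligodendrocyte markers in the results below was not tested.

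Each of the 8 genes had more bases under H4K8ac peaks in every adult library than in any neonatal library. Promoter peaks, which are those within 3000 bp of an annotated start, were assigned to 4, 6 and 1 of the 8 genes in neonatal replicates 1, 2 and 3 (3.67 ± 2.52, SD, n = 3) and to all 8 in each adult replicate, a difference of 4.33 genes. A promoter peak in all 3 adult libraries is common, at 73.1% of the 18548 genes with a promoter peak in any library. Of those 18548 genes, 34.4%, 73.9% and 30.3% had one in neonatal replicates 1, 2 and 3. In adult replicates 1, 2 and 3 the shares were 83.6%, 81.5% and 83.5%, so more genes had one in the adult lists generally. Counting peaks of any kind, the 8 genes held 8, 19 and 6 in the neonatal and 145, 143 and 139 in the adult lists. Those are between 0.0609% and 0.0879% of the peaks of a neonatal list and between 0.181% and 0.201% of an adult list. Most of the adult peaks belonged to Nfasc, with 63, 59 and 64, and Ninj2, with 32, 28 and 25. The larger adult share is therefore not a property of each of the 8 genes.

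Gjb1 and Ninj2 were the 2 genes whose promoter had peaks in each of the 3 adult libraries while the neonatal lists held none there, a pattern shown by 12.1% of the 18548 genes. Without neonatal replicate 2 the count was 4 with Cntn2 and Jam3 added, and the background was then 38.2%. Nfasc, Gjc3 and Cntn1 had a promoter peak in neonatal replicates 1 and 2, Cntn2 and Jam3 in replicate 2 alone, and Cadm4 in all 3. When the lists were limited to an equal length, the 7353 strongest peaks of each by p-value, the genes with a promoter peak numbered 3, 2 and 1 in the neonatal and 5 in each adult library. The same 5 genes had one in all 3 adult libraries, against 21.9% of the 18548 genes. Gjc3, Cntn2 and Jam3 then had one in every adult list and in none of the neonatal lists, against a background of 4.07% of 9901 genes. Neither Gjb1 nor Ninj2 had a promoter peak among the strongest in any library.

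The summed width of the peaks assigned to a gene, in kilobases (kb), gave the same order in each of the 8 genes: all 3 adult libraries lay above all 3 neonatal ones, also for promoter peaks alone. Across all 23433 genes this held for 60.0%, and for promoter peaks alone for 60.1% of 18548, so the direction is the common one. The median difference, adult minus neonatal, was 10.2 kb over the 8 genes and 0.661 kb over all genes. The 8 differences lay between the 88.4 and 99.7 percentiles of all genes. Summed widths are not scaled to gene length, and the 8 genes were chosen with earlier results of these data known. The percentiles and medians therefore only describe these genes. With 3 against 3 libraries an exact two-sided permutation test cannot give less than p = 0.1, which it gave for each of the 8 genes (Benjamini-Hochberg adjusted p = 0.166 over the 23433 genes), so no difference in width passed a threshold of 0.05.

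**Figure D1:**
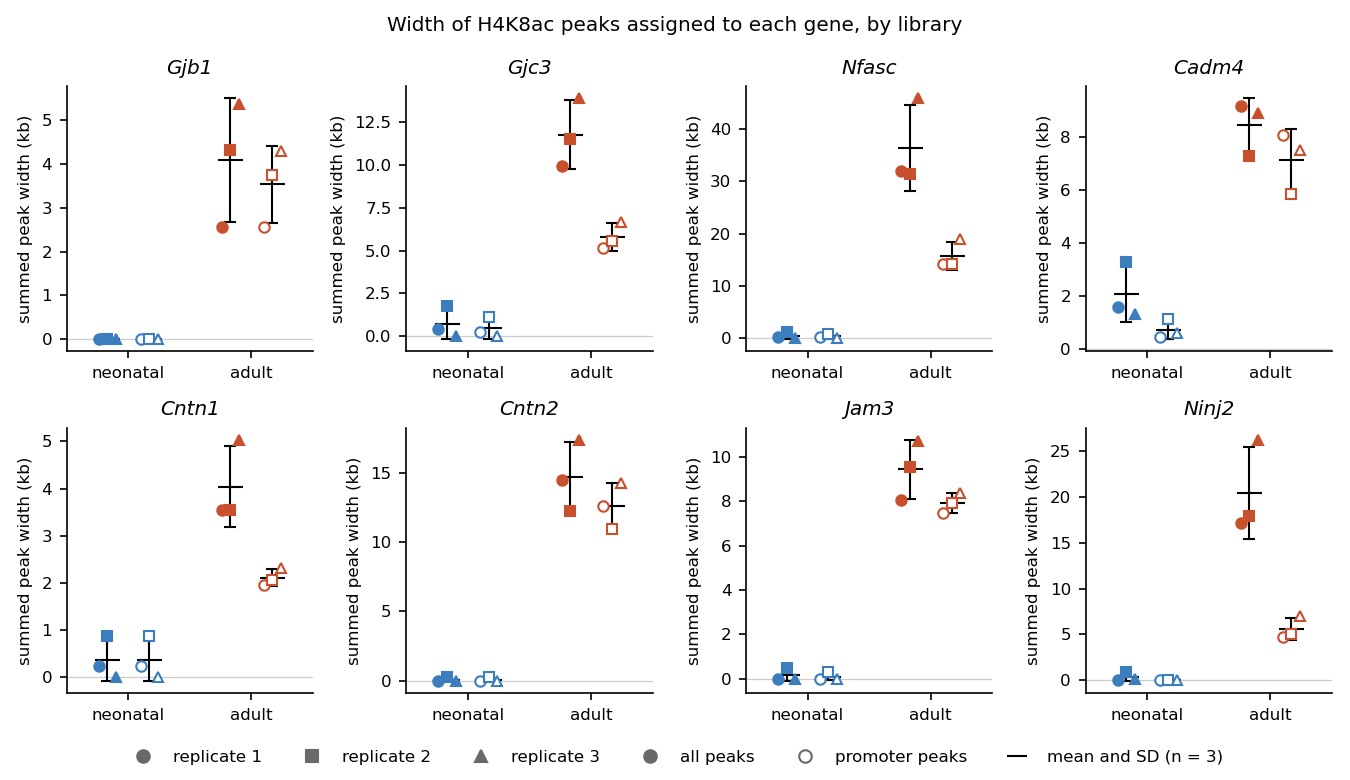
Summed width of assigned H4K8ac peaks (vertical axis, kb) in each library for the 8 genes, for all peaks (filled) and promoter peaks (open); bars give the mean and SD of 3 replicates and each panel has its own scale. The adult libraries sit above the neonatal ones in every panel, from a mean of 4.04 kb for Cntn1 to 36.4 kb for Nfasc.

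Gjb1 encodes a connexin that oligodendrocytes and Schwann cells place in gap junctions. It had no peak in any neonatal library, while its peaks spanned 2.57, 4.31 and 5.37 kb in adult replicates 1, 2 and 3 (4.08 ± 1.41 kb, SD, n = 3). Adult replicates 2 and 3 had 0.568 and 1.08 kb of this in intergenic sequence before the gene, and the rest lay around the downstream start and up to or just past the end of the gene. Within 1000 bp of the upstream start at chrX:101376378 there was no peak in any library, and within 1000 bp of the start 7.36 kb downstream, at chrX:101383736, peaks covered 1.25, 2.00 and 1.81 of 2.00 kb in the adult libraries and none in the neonatal ones. A single adult region, chrX:101381879-101385891, held the peaks of that downstream start and reached the end of the gene. The strongest promoter peak had a smaller p than 82.2%, 88.6% and 84.8% of the peaks in the 3 adult lists. The authors' signal value for it, read here as a fold over background, was 8.68, 9.93 and 8.62.

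Gjc3, a second connexin of myelinating glia, had peaks in 2 of the 3 neonatal libraries. Their summed width was 0.439, 1.77 and 0 kb in neonatal and 9.91, 11.5 and 13.9 kb in adult replicates, with means of 0.738 ± 0.924 kb and 11.8 ± 2.01 kb (SD, n = 3). In the adult lists the peaks formed a block over the single promoter and the sequence before it: chr5:137961018-137966517 was covered over 4.59, 5.08 and 5.49 kb, and the intergenic stretch chr5:137966805-137971598 over 4.19, 4.31 and 4.78 kb. Peaks covered 33.4%, 38.7% and 47.8% of the gene with 10 kb on either side in the adult libraries and at most 5.99% in a neonatal one. Among the 7353 strongest peaks its adult widths were 0.757, 6.09 and 10.3 kb and its neonatal widths 0.213, 0 and 0 kb, so the groups still did not overlap. Every adult library lay above every neonatal one in 34.4% of the 10855 genes with a peak among the strongest.

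Nfasc encodes neurofascin, whose glial form anchors the myelin loops at the paranode and whose neuronal form clusters channels at the node. Its assigned peaks had the largest adult width of the 8 genes, with 0.173, 1.27 and 0 kb in neonatal and 32.0, 31.4 and 45.9 kb in adult replicates (36.4 ± 8.21 kb, SD, n = 3). Counted by position, peaks covered 43.9, 44.3 and 62.5 kb of the gene with 10 kb on either side in adult replicates 1, 2 and 3. That includes peaks assigned to other genes, such as Cntn2, so a gap between assigned peaks need not be free of peaks. The gene is 177 kb long and other long genes also have room for many peaks. Of its 74 regions, made by merging the 6 lists, 22 had peaks in each of the 3 adult lists and none in the neonatal ones. That pattern was shown by 20.4% of all 98027 regions. Of the 22 regions, 14 were intronic. Its starts did not behave alike. At the upstream start, chr1:132741797, peaks covered 0.173, 0.856 and 0 kb of the surrounding 2.04 kb in neonatal and 1.96, 2.04 and 1.93 kb in adult libraries. At the internal start 34.4 kb into the gene, chr1:132707326, the neonatal libraries had none and the adult libraries 1.91, 1.95 and 2.06 of 2.08 kb. Another start 105 kb into the gene was also covered in the adult libraries alone, over 0.682, 0.741 and 0.862 kb.

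Cntn2, the juxtaparanodal contactin found on both axon and glia, is the neighbour of Nfasc: its start lies 21.4 kb beyond the end of Nfasc on the same strand. Peaks summed to 0, 0.230 and 0 kb in neonatal and 14.5, 12.3 and 17.4 kb in adult replicates, so a single peak in neonatal replicate 2 was all that the neonatal lists held. Most of the adult width lay in 2 of the 22 Cntn2 regions, the promoter regions chr1:132538026-132544653 and chr1:132532211-132537837, and a distal region at chr1:132557382-132559374 added 1.57, 1.08 and 1.99 kb. The first covered the upstream start, with a widest single peak of 6.37, 4.86 and 6.62 kb in adult replicates 1, 2 and 3, wider than at least 99.5% of the peaks of each list. The second, around a start 9.37 kb into the gene, had no neonatal peak. The strongest Cntn2 promoter peak ranked 3438 of 72278, 536 of 72661 and 2896 of 77002 in adult replicates 1, 2 and 3.

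**Figure D2:**
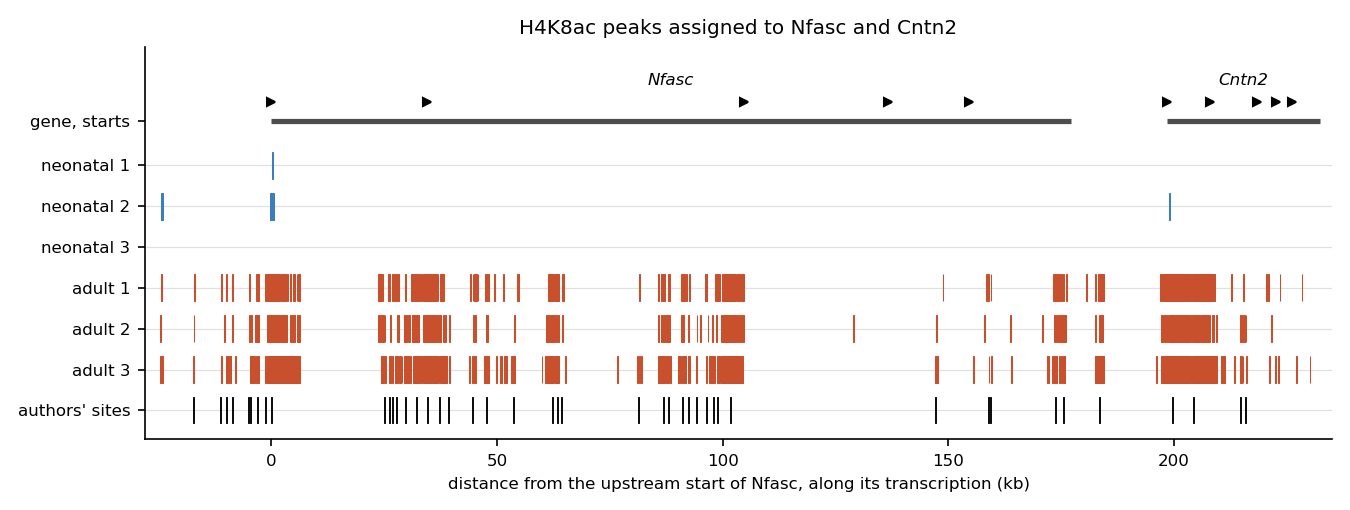
Peaks assigned to Nfasc and Cntn2 in each library (rows) by distance along transcription from the upstream start of Nfasc (horizontal axis, kb), with annotated starts as arrowheads and the 400-bp sites of the authors' deposited table as ticks. Adult peaks assigned to these genes lie at the starts 0, 34.4 and 105 kb into Nfasc, in its introns and over the start of Cntn2. The neonatal lists assign 1, 3 and 0 peaks to both genes together. Peaks of the stretch that were assigned to other genes are not drawn.

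Cntn1, the paranodal contactin of the axon that is also made by cells of the oligodendrocyte lineage, had the smallest difference in width of the 8 genes. Its peaks summed to 0.231, 0.882 and 0 kb in neonatal and 3.54, 3.55 and 5.03 kb in adult libraries, a difference of 3.67 kb. The gene spans 291 kb, and peaks covered at most 1.72% of it and its 10-kb flanks in any library. At its upstream start, chr15:92051165, peaks covered 0.231, 0.556 and 0 kb in neonatal and 1.05, 0.995 and 0.963 kb in adult libraries. No peak lay at a start 77.0 kb on, and a start 110 kb on was covered over 0.746, 0.588 and 1.17 kb in adult libraries and over 0.326 kb in neonatal replicate 2 alone. Among the 7353 strongest peaks the direction turned: 0.231, 0.556 and 0 kb remained in the neonatal and none in the adult libraries (difference −0.262 kb; exact two-sided permutation test, p = 0.4). Across the 10855 genes with a peak among the strongest, 34.4% had every adult above every neonatal library, and 5 of the 8 genes did: Gjc3, Nfasc, Cadm4, Cntn2 and Jam3. Gjb1, counted in the 8, had no peak among the strongest in any library and so lies outside that background.

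Cadm4, the internodal adhesion molecule that glia present to the axon, was the gene with peaks in all 3 neonatal libraries. It had peaks of 1.60, 3.30 and 1.34 kb in neonatal and 9.15, 7.26 and 8.88 kb in adult replicates, a ratio of means of 4.05. Its promoter region, chr7:24480922-24489071, was the 1 of 162 regions of the 8 genes with a peak in all 6 libraries, against 4.74% of all 98027 regions. The strongest promoter peak ranked 164 of 9097, 1967 of 31189 and 3031 of 7353 by p in neonatal replicates 1, 2 and 3. Its fold over background, read from the authors' signal value, was 9.34, 10.4 and 4.92 in the neonatal and 24.9, 17.0 and 16.8 in the adult libraries. That peak lay at or beside the start in the neonatal libraries and adult replicate 1, but over the first intron in adult replicates 2 and 3. The peak at the start had a fold below 17.0 in adult replicate 2 and of 16.8 in adult replicate 3. The folds listed therefore do not all describe the same place. Neonatal peaks recurred at 2 places, the start and the first intron, and in adult libraries peaks filled most of the sequence between them. The intronic peaks were classed as intron in the neonatal lists. The wider adult peaks there reached closer to the start and were mostly classed as promoter. The promoter widths of Cadm4 at the 2 ages therefore do not cover the same sequence. Some Cadm4 peaks in the stretch chr7:24474209-24475610 lie in the intron or at the end of a neighbouring gene (ENSMUSG00000046223.10) and were assigned by the nearest start.

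Jam3 encodes a junctional adhesion molecule of the immunoglobulin superfamily, found at tight junctions. Its peaks summed to 0, 0.466 and 0 kb in neonatal and 8.06, 9.55 and 10.7 kb in adult libraries. Most of the adult width lay in 1 long promoter region, chr9:27147014-27155549, which was covered over 7.46, 7.94 and 8.39 kb in adult libraries and over 0.305 kb in neonatal replicate 2. The other Jam3 peaks, in introns or intergenic sequence, summed to 0.604, 1.62 and 2.33 kb in the adult libraries. In adult replicate 3 the promoter region held a single peak of 8.39 kb. The promoter region began near the upstream start at chr9:27155421 and ran into the gene past a start 6.69 kb on, where the adult libraries had 1.84, 1.84 and 2.00 kb of 2.00 kb covered and the neonatal libraries had none.

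Ninj2, ninjurin 2, is a homophilic adhesion molecule known from glia after nerve injury. Peaks summed to 0, 0.851 and 0.160 kb in neonatal and 17.2, 17.9 and 26.2 kb in adult replicates, and most of the adult width lay outside the promoter, at 12.4, 12.8 and 19.3 kb. The neonatal peaks were all outside the promoter too. Neonatal replicates 2 and 3 both had peaks in the first intron within chr6:120110691-120116060, where the adult libraries had 4.62, 5.02 and 5.37 kb. At the upstream start, chr6:120093350, peaks covered 1.84, 1.76 and 2.00 of 2.00 kb in adult and none in neonatal libraries, and a start 100 kb on had 0.347 kb in adult replicate 3 alone.

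**Figure D3:**
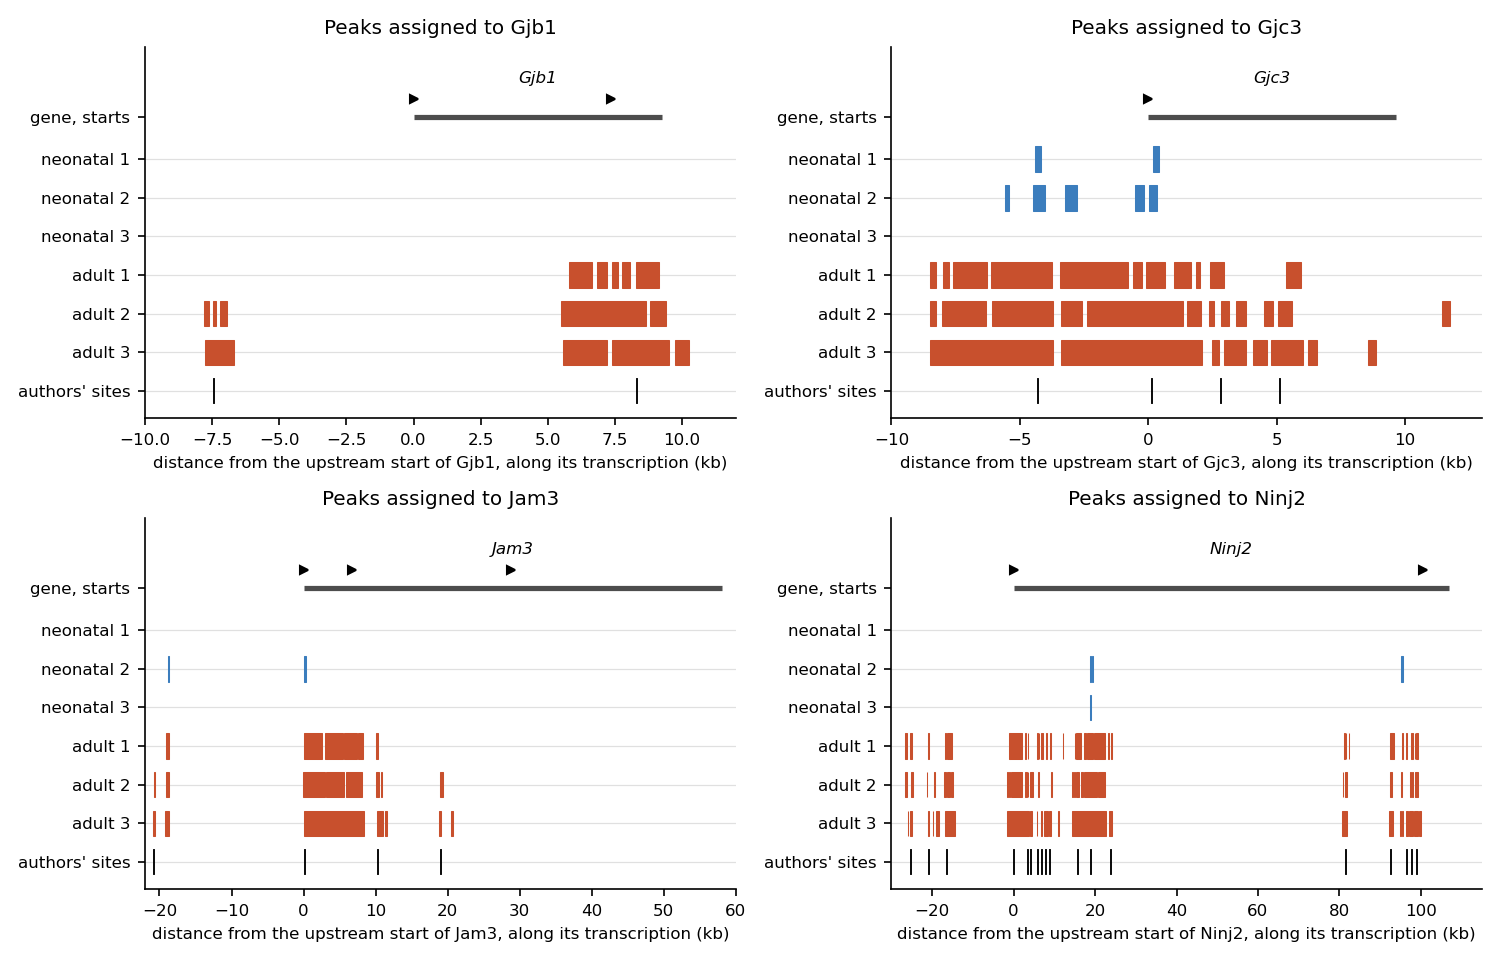
Peaks assigned to Gjb1, Gjc3, Jam3 and Ninj2 in each library (rows) by distance along transcription from the gene's upstream start (horizontal axis, kb, a different range per panel), with annotated starts as arrowheads and the authors' sites as ticks. Gjb1 has most of its adult peak width around the start 7.36 kb into the gene and none at the upstream one. Jam3 has a nearly continuous block from the upstream start past the start 6.69 kb on. The starts drawn are those to which the lists assign peaks.

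By start, the 8 genes have 22 groups of annotated starts to which the lists assign peaks, joining starts within 1000 bp. A peak lay within 1000 bp in all 3 adult libraries at 13 of the 22, against 53.7% of 31601 such groups over all genes. All 3 adult and no neonatal libraries had one at 6 of the 22, against 9.40% over all genes: the downstream start of Gjb1, the starts 34.4 and 105 kb into Nfasc, the start 9.37 kb into Cntn2, the start 6.69 kb into Jam3 and the upstream start of Ninj2. In 4 of these 5 genes it was an internal start, and the upstream start of Nfasc, Cntn2 and Jam3 had a peak in at least 1 neonatal library. At 1, that of Cadm4, all 6 libraries had a peak, against 16.4% over all genes, and at 5 no library had one. The starts of 1 gene share its chromatin and are not independent.

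**Figure D4:**
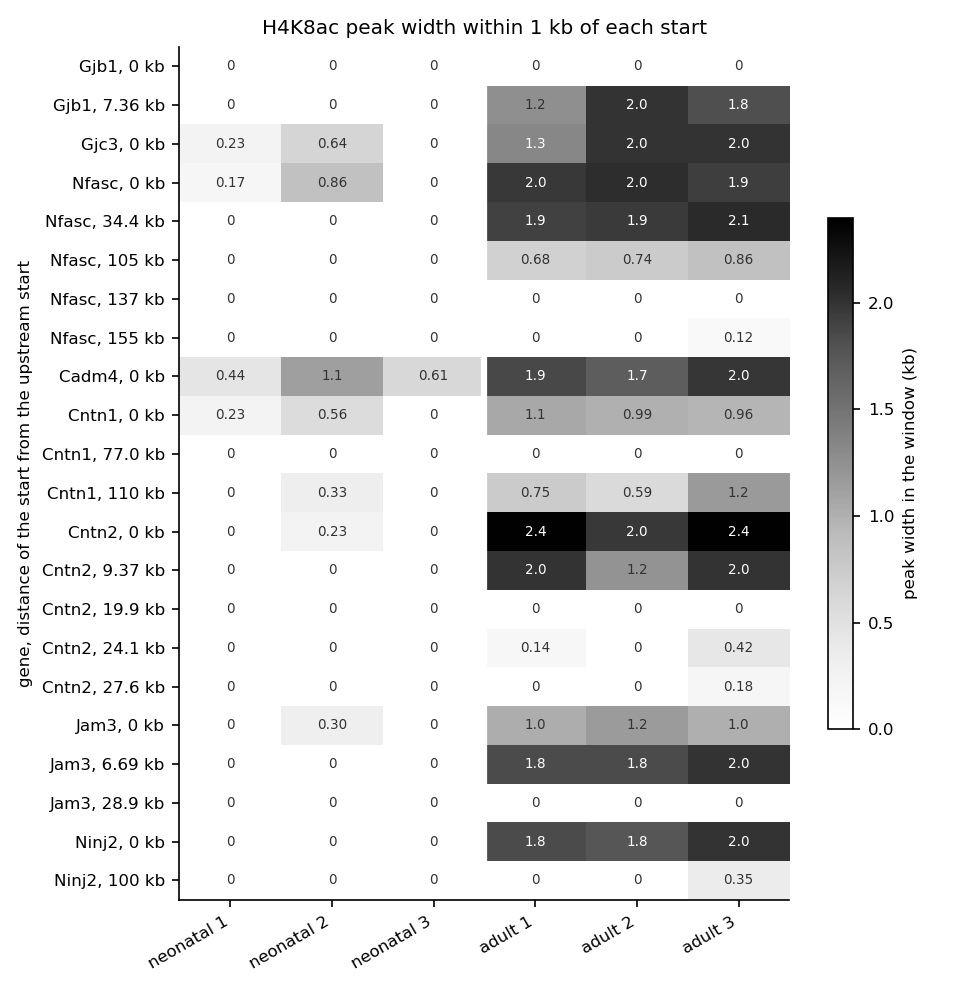
Peak width (shade and printed value, kb) within 1000 bp of each group of starts (rows, labelled by gene and distance from the upstream start) in each library (columns). Most of the covered cells fall in the adult columns, and the Cadm4 start is the row filled in all 6 libraries.

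Over the 162 regions of the 8 genes, 149 had a peak in an adult and no neonatal library (73.7% of all 98027 regions), 13 had peaks at both ages and 0 had neonatal peaks alone (5.62% of all regions). In all 3 adult and no neonatal libraries were 42 regions, or 11 promoter, 23 intronic, 4 distal intergenic and 4 other regions, against 20.4% of all regions. Another 72 had a peak in 1 adult library only (38.5% of all regions). Nfasc held 22 and Ninj2 11 of the 42, and Cadm4 held 0.

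A comparison of the ages at fixed sites of 400 bp came from the authors' deposited table, whose positive log2 values were taken to mean more acetylation in adult cells, from the overlap with the peak lists. The authors' deposited table does not state how many sites were tested. The number was inferred as 54838 from its p-values and adjusted p-values. Of that inferred number, 79.6% were listed as higher in adult cells and 0.463% as lower. The 8 genes had 84 listed sites in the authors' deposited table, all of them higher in adult cells, as were 99.4% of the 43888 listed sites, with log2 values from 1.04 to 7.04. Their median was 2.87, against 2.41 over all listed sites. In 77 of the 84 no neonatal library had a peak, and over all listed sites that share was 71.7%. Nfasc had 39 of the sites, Ninj2 18, Cntn1 8, Cntn2 5, Gjc3, Cadm4 and Jam3 4 each and Gjb1 2.

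Each of the 8 genes had a promoter site that was higher in adult cells in the authors' deposited table, as had 64.3% of the 18548 genes with a promoter peak. Taking the promoter site of smallest p per gene from the authors' deposited table, the median log2 value was 2.57 over the 8 genes and 1.77 over 12058 genes, and 7 of the 8 were above the latter. Among the connexins, the authors' deposited table gave the Gjc3 site at chr5:137962768-137963167 a log2 value of 2.24 (adjusted p = 2.69e-07). For Gjb1 the authors' deposited table gave 1.95 at chrX:101384520-101384919 (adjusted p = 4.51e-04), close to the downstream start. Cntn2 had the highest value of the 8 genes by that choice of site, 4.99 at chr1:132537195-132537594 (adjusted p = 8.94e-10) in the authors' deposited table. That site was classed as promoter and lay under adult promoter peaks. Its distance from its assigned start was 3511 bp, beyond the promoter distance given above. Another Cntn2 promoter site, chr1:132541791-132542190, had the highest of all 84 values, 7.04 (adjusted p = 2.22e-09) in the authors' deposited table. This other site lay 899 bp from its assigned start.

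For Nfasc the authors' deposited table gave 3.19 at the internal start, chr1:132706922-132707321 (adjusted p = 3.49e-13), and 1.82 at the upstream start (adjusted p = 1.47e-04); the difference between those 2 sites was not tested. Ninj2 had 2.73 at its upstream start (adjusted p = 4.45e-06), Jam3 2.41 at its own (adjusted p = 3.29e-06) and Cadm4 2.87 at 1958 bp from its start (adjusted p = 0.00150) in the authors' deposited table. No listed site lay within 1000 bp of the Cadm4 start, the start with peaks in all 3 neonatal libraries. Cntn1 was the gene below the median over genes, with 1.64 (adjusted p = 0.00112), and its upstream start had the lowest of the 84 values, 1.04 (adjusted p = 0.0218), in the authors' deposited table. Jam3 intron sites reached 6.04 and 5.10 in the authors' deposited table, both without a neonatal peak.

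**Figure D5:**
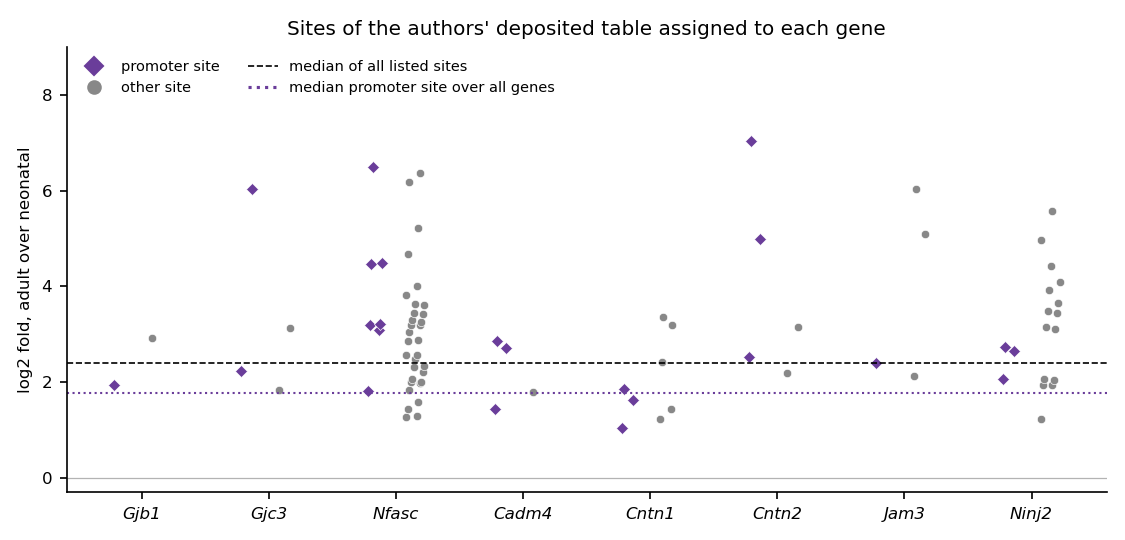
Log2 fold, adult over neonatal (vertical axis), of the sites of the authors' deposited table assigned to each gene, with promoter sites as diamonds and other sites as circles. All 84 points lie above 0; the dashed line is the median of all listed sites (2.41) and the dotted line the median promoter site over genes (1.77).

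Among 28 other genes of gap junctions, the node region and related adhesion, promoter peaks were found for 12, 22 and 13 in the neonatal and 20, 20 and 19 in the adult libraries. Of the 28 genes, 4 had no promoter peak in any library. Mag, a myelin protein facing the axon, was the 1 of the 28 with promoter peaks in every adult list and in none of the neonatal lists. That pattern was shown by 12.1% of the 18548 genes with a promoter peak in any library. Mag peaks summed to 5.24, 2.57 and 7.73 kb in the adult libraries. Gja1 and Gjb6, connexins that astrocytes use to couple with oligodendrocytes, had promoter peaks in neonatal replicate 2 alone. Gldn, gliomedin, clusters nodal proteins in peripheral nerve. It was the 1 of the 28 genes with promoter peaks in all 3 neonatal and no adult libraries, with 0.181, 0.427 and 0.165 kb. The share with that pattern was 0.264% of the same 18548 genes.

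In width, 18 of the 28 genes had every adult above every neonatal library. Over the 23433 genes with an assigned peak the share was 60.0%. The 28 include genes without a peak in any library, which that background leaves out, so the 2 shares are not directly comparable. Of the 28, the authors' deposited table gave 15 a promoter site higher in adult cells and 1, Gldn, a lower one (log2 value −2.82, adjusted p = 3.92e-04), with a median of 2.38 over the 16. The highest were Cadm2 at 4.43, a relative of Cadm4, Epb41l3 at 4.21, a scaffold of the paranodal junction, and Mag at 3.72 in the authors' deposited table. After Gldn the lowest were Ninj1 at 1.56 and Cadm1 at 1.66 in the authors' deposited table.

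The genes most like the connexins were sought by the Euclidean distance between log2(summed promoter peak width in bp + 1) over the 6 libraries. Nearest to Gjb1 were Gm47785 (distance 0.0858), 2310016G11Rik (0.139) and Gpt (0.143), each with no promoter peak in the neonatal libraries and between 2.67 and 4.49 kb in the adult ones. Nearest to Gjc3 were Gm46560 (0.429), Denn2b (0.482) and Slc9a3r2 (0.493), with promoter peaks in neonatal replicates 1 and 2 and none in replicate 3. Those distances describe 6 libraries only.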

How the data were processed

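H4K8ac ChIP-seq peaks of 3 neonatal and 3 adult libraries were used; the 6 inputs were not. The submitters' processing notes name Trim Galore, Bowtie2 2.4.5, SAMtools, deepTools, MACS2, DiffBind, ChIPseeker and GRCm38; the use of input in calling is not given in the sources used here. Peaks were called per library. Each peak row deposited by the authors holds, per the file headers, a score, a fold over background (a linear ratio), p-values and q-values as −log10, and the gene of the nearest start. The largest q-value of a list was 0.0427 to 0.0489. The authors also deposited a table of 400-bp sites with log2 fold, p-value and adjusted p-value; a positive log2 was read as adult-higher because 85.0%, 89.4% and 96.7% of positive sites overlapped the 3 adult lists against 11.7%, 27.8% and 10.3% for the neonatal ones.

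Members were the listed gene symbols. Peaks were summed by the authors' gene assignment (nearest start) and promoter class. Widths were tested for all 23433 genes with exact two-sided permutation tests over 20 arrangements and Benjamini-Hochberg adjustment, in Python 3.11.15 with numpy 2.4.6 and pandas 2.3.3, checked on simulated data. Lists were merged into regions where peaks shared at least 1 bp. Besides the 8 genes, the text names, of the 28 related genes, the 3 highest and 3 lowest promoter sites and those with promoter peaks in all libraries of 1 age and none of the other, and the 3 genes nearest to Gjb1 and Gjc3. Gja1 and Gjb6 were named after their values were seen. The 8 genes and the lists were chosen with earlier results of these data known. One gene of the related list is not reported here. Depth is unknown from these files. Coordinates count from 1. Sequences are from RefSeq (GRCm38.p6); Jam3 had no window.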

Additional observations from a re-analysis of the deposited data

How the results depend on the processing

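The difference in the number of genes with a promoter peak stayed between 3.00 and 5.50 over leaving out each replicate, a q-value limit of 0.005, equal list lengths, position within 3000 bp, promoters of 1000 bp and joined regions. The count with promoter peaks in all adult and no neonatal libraries was between 2 and 4 when each replicate was left out (4 without neonatal replicate 2) and 1 when regions within 1000 bp were joined, with Gjb1 remaining. An alternative chosen after seeing the data, position within 3000 bp among the strongest peaks, gave 3.00 and 3. The number of genes with every adult library above every neonatal one in width was 5 among the 7353 strongest peaks and 8 in the other alternatives run. Among the strongest peaks Cntn1 turned to −0.262 kb, and Gjb1, with no peak there, to 0. Ninj2 fell to 1.74 kb, from 5.37 kb in adult replicate 3 and 0.160 kb in neonatal replicate 3, with 0 in the other libraries. With libraries of the same replicate number taken as a replicate block, the difference in genes with a promoter peak was 4.33, and each width gave p = 0.250 (exact sign-flip test), the smallest that 3 pairs allow. The numbers share nothing in the labels, and same-numbered libraries correlated at −0.0378, 0.0254 and 0.0697 in their deviations. The list length differs between the ages and bounds every count; the cause of a missing neonatal peak was not tested. All 8 promoter sites of the authors' deposited table kept an adjusted p under 0.005.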
